A study of Mus musculus with 12 samples.

Results

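Hematopoietic stem cells (HSCs) are isolated by flow cytometry with antibodies against surface proteins, and the 10 genes described here encode proteins used for that purpose. They are Kit, Ly6a (Sca1), Slamf1 (CD150), Cd48, Flt3 (CD135), Cd34, Procr, Cd27, Thy1 and Tek, and were chosen by name out of 49585 genes counted in every sample. Kit, Ly6a, Slamf1 and Flt3 encode the proteins named in the sort of this study, while the other genes encode markers that were not part of it. All 10 genes had counts and all passed the filter on low counts, which left 11848 genes.

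RNA was sequenced from bone marrow HSCs of 6 wild type (WT) and 6 Pon2-/- mice, with 1 sample per mouse. Pon2-/- mice carry a gene trap, a β-geo cassette between loxP sites, in intron 2 of Pon2, the gene of the antioxidant enzyme paraoxonase 2. The trap is present in every cell of the animal. Both genotypes are labelled C57BL/6J, the WT mice came from Charles River, and all mice were young, at 10 to 14 weeks of age, without further treatment. The sorted cells were Lin-, Sca1+, ckit+, CD135- and CD150+. The labels call them LT-HSCs, and the study's methods say that this gate takes up both LT-HSCs and MPP2 cells, a megakaryocyte-biased type of multipotent progenitor. CD48 is not among the proteins named in the sort. From each mouse, 8 wells of 10 cells were sorted, so that a sample holds at most 80 cells, and Smart-seq2 libraries of full-length cDNA were made.

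The sort rests on a simple scheme. Mouse stem and progenitor cells lack the markers of mature blood lineages and carry Sca1, a small protein anchored in the membrane by a lipid, and Kit, the receptor of stem cell factor. Among these cells, Flt3, the receptor of FLT3 ligand, appears on multipotent progenitors with lymphoid potential, CD150 is kept on HSCs and on progenitors of the megakaryocyte and erythroid side, and CD48 is low on HSCs and higher on most progenitors. CD34 is low on adult mouse long-term HSCs and rises on short-term HSCs and progenitors. Procr, the endothelial protein C receptor, and Tek, the receptor of angiopoietin 1, are enriched on HSCs. CD27 is a receptor of the TNF receptor family found on stem and progenitor cells and on lymphocytes, and Thy1 is present at a low level on HSCs and at a high level on T cells. The counts measure transcripts and not the proteins seen by the antibodies.

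Total counts per sample were 12967791 to 24228280, and 13941 to 15656 genes had a count. A gene with a count of 0 has a limit of 3 counts, which is 0.124 to 0.231 counts per 1000000 counts (CPM) and covers counting error only, since amplified reads are not independent molecules. CPM were scaled with the TMM method. Pon2 had a mean of 112.7 CPM in WT and 25.7 CPM in Pon2-/- samples, and no Pon2-/- sample reached the lowest WT sample. The count of Pon2 covers all of its exons, including those before the trap, and the Pon2-/- samples kept counts. With edgeR, the log2 fold change of Pon2 (Pon2-/- over WT) was -2.13 (SE 0.57, adjusted p = 0.586). Pon2 was called with DESeq2 (adjusted p = 0.0104, and 0.00344 without Cook's cutoff) and, with edgeR, without Pon2-/- replicate 5 (log2 fold change -1.88, adjusted p = 0.0295), and over 19 alternatives its log2 fold change was -2.93 to -1.88. Each mouse is a separate sample of its genotype.

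Transcripts of HSC markers were detected in all samples, some of them at low levels. All 8 genes of a list of HSC reporter genes and transcription factors had counts in each of the 12 samples. Among these, Hlf, a transcription factor of HSCs, had 274 to 382 CPM in WT and 227 to 455 CPM in Pon2-/- samples, and Meis1, a homeobox factor, had 307 to 385 and 211 to 349.9 CPM. Pdzk1ip1, the gene behind an HSC reporter mouse, had 318 to 476 CPM in WT and 252 to 355 CPM in Pon2-/- samples. Lower levels were found for Hoxb5, with 3.96 to 30.5 CPM in WT and 0.359 to 20.2 CPM in Pon2-/- samples. Ctnnal1 had 3.81 to 67.5 and 1.67 to 28.8 CPM, and Fgd5 had 4.06 to 87.4 and 4.23 to 106.6 CPM. Of the 12 genes for mature lineage markers, 5 had no count in any sample, among them Cd3e, Cd5, Cd8a and Cd8b1. The other 7 had a count in at least 1 sample, and Itgam and Ptprc had counts in all 12 samples. Ly6c2 had counts in 5 WT and 4 Pon2-/- samples, with up to 252 CPM. Ly6g had counts in 4 samples of each genotype and Cd4 in 2 Pon2-/- samples. Of 9 endothelial genes, 4 had no count in any sample (Cdh5, Kdr, Sox17 and Plvap), while Emcn and Tie1 had counts in all 12 samples and Ramp2 in 4 WT and 5 Pon2-/- samples. The summed level of the 9 genes was 91.9 to 225 CPM in WT and 84.9 to 238 CPM in Pon2-/- samples.

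The 10 protein-coding genes lie on 7 chromosomes (GRCm38, annotation GENCODE M21, whole gene spans). Kit lies on chromosome 5 from 75574916 to 75656722 and Flt3 on the same chromosome from 147330741 to 147400489, on opposite strands. On chromosome 1 are Cd48 (171682009 to 171705258), Slamf1 (171767127 to 171801184) and Cd34 (194938819 to 194961279), all on the plus strand. Ly6a lies on chromosome 15 from 74994877 to 74998031 and Procr on chromosome 2 from 155751117 to 155755471. Thy1 lies on chromosome 9 from 44043384 to 44048579 and Tek on chromosome 4 from 94739289 to 94874976. None of the 10 genes had a near-identical copy among the annotated transcripts (90% identity over 50% of the length).

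Levels can be compared between genes only per length of transcript. Per kb of merged exons, and averaged on a log2 scale over the 12 samples, the order was Ly6a, Cd27, Procr, Kit, Cd48, Cd34, Slamf1, Tek, Flt3 and Thy1. Ly6a was the highest, with a median of 210.04 CPM per kb and a range of 119 to 314, followed by Cd27 with a median of 115 (64.3 to 144). Thy1 was the lowest, with a median of 1.21 and a range of 0 to 4.12 CPM per kb. Among the 11848 tested genes, the level per kb of Ly6a was at percentile 98.1, that of Kit at 89.5, that of Slamf1 at 62.9, that of Flt3 at 46.2 and that of Thy1 at 10.3. The transcript of Flt3 was thus near the middle of all tested genes in cells that were sorted as CD135-.

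Neighbours in this order were compared within samples with two-sided exact permutation tests (sign flips over 12 differences, adjusted over 9 pairs). Ly6a was 1.97-fold higher than Cd27, and higher in 11 of 12 samples (exact permutation test, adjusted p = 0.00293). Cd27 was 1.85-fold higher than Procr, also in 11 of 12 samples (exact permutation test, adjusted p = 0.00293). Cd34 was 3.68-fold higher than Slamf1 in 12 of 12 samples (exact permutation test, adjusted p = 0.00293), and Flt3 was 5.64-fold higher than Thy1 in 11 of 12 samples (exact permutation test, adjusted p = 0.00659). For the 5 other pairs of neighbours no difference beyond their spread was found. For these pairs, which are Procr and Kit, Kit and Cd48, Cd48 and Cd34, Slamf1 and Tek, and Tek and Flt3, the exact permutation tests gave adjusted p of 0.166 to 0.959. With the length of the longest transcript in place of the merged exons, the order was Ly6a, Cd27, Cd34, Kit, Procr, Cd48, Slamf1, Flt3, Tek and Thy1, and Slamf1 passed against Tek (log2 difference 1.03, exact permutation test, adjusted p = 0.0193).

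**Figure D1:**
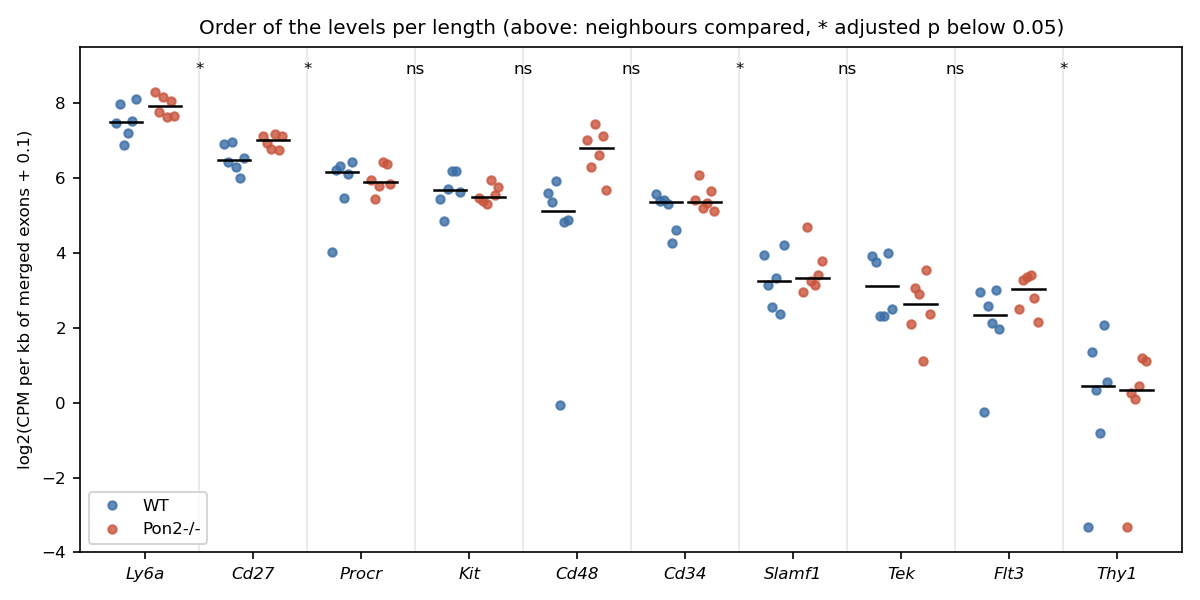
Level of each gene per kb of merged exons in every sample, on a log2 scale with 0.1 added, ordered by the mean over 12 samples; points are samples, black lines are medians of 6 samples, and the sign above each border gives the comparison of neighbours (* adjusted p below 0.05, ns otherwise). Ly6a stands at the top at 119 to 314 CPM per kb, Thy1 at the bottom at 0 to 4.12, and 4 of the 9 borders separate genes whose levels differed.

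Between the genotypes, the question was whether the transcripts of the markers by which these cells are defined differed when the cells themselves had passed the same gates. None of the 10 genes was called with edgeR at an FDR below 0.05 and a fold change above 2, a rule that called 24 of the 11848 tested genes (0.203%). DESeq2 also called 0 of the 10 genes, with and without its cutoff for outlying counts, while it called 1.77% of all genes with the cutoff. At an unadjusted p below 0.05 with edgeR, 2 of the 10 genes were found, Cd48 and Cd27, both higher in Pon2-/- HSCs, compared with 3.13% of all tested genes in either direction and 1.7% in this direction. The exact permutation test of single genes gave the same 2 genes below 0.05, compared with 5.87% of all tested genes. For none of the 10 genes did the genotypes stand apart without overlap, which was seen in 0.633% of all tested genes. The fitted fold change was above 0 for 7 of the 10 genes, compared with 49.2% of all tested genes, and its median was 0.30 on the log2 scale, compared with -0.01 for all tested genes. A difference in the level of a transcript per cell and a difference in the share of cells that carry it cannot be told apart in pools of cells.

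**Figure D2:**
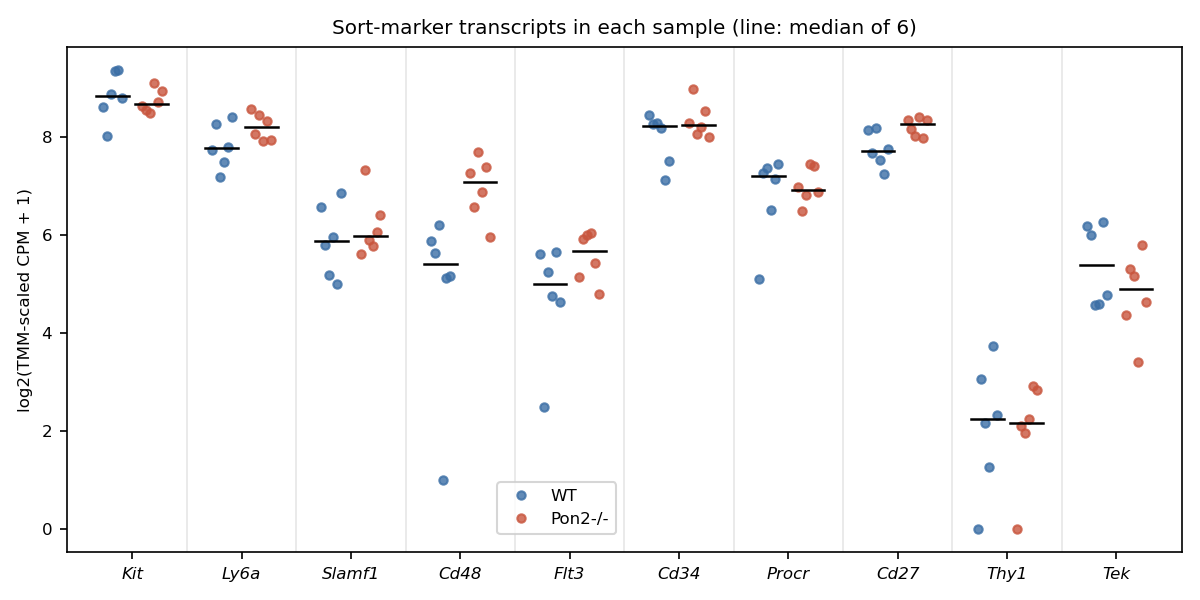
Level of each gene in every sample as log2 of TMM-scaled CPM plus 1, for 6 WT samples (blue) and 6 Pon2-/- samples (red); points are samples and black lines are medians. On this log2 scale, Cd48 has the widest gap between the medians, 41.8 against 134.8 CPM, and WT replicate 4 lies far below the other samples at 1.02 CPM.

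Cd48 encodes the GPI-anchored ligand of the receptor CD244 and was not used in the sort. In WT samples it had 1.02 CPM at the lowest, 41.8 at the median and 72.1 at the highest, and in Pon2-/- samples 61.3, 134.8 and 205 CPM. Pon2-/- replicate 6 was the only Pon2-/- sample that did not exceed the highest WT sample, and WT replicate 4, with 13 counts, stood far below the other 5 WT samples (33.7 to 72.1 CPM). The fold change was 3.20, or 1.68 on the log2 scale (SE 0.62, 95% interval 0.47 to 2.89, edgeR adjusted p = 0.9999, unadjusted p = 0.0167). The mean log2 CPM was higher by 2.28 in Pon2-/- samples (exact permutation test, unadjusted p = 0.00433). Without WT replicate 4, this difference was 1.38 (p = 0.00649 in the exact permutation test), and edgeR gave a log2 fold change of 1.42 with an adjusted p of 0.27. Over the 19 alternatives, the log2 fold change was 1.42 to 2.00 and the adjusted p stayed between 0.1 and 1.0.

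CD48 is also abundant on mature lymphocytes, and the B cell gene Cd79b had counts in every sample. The summed level of 6 B cell genes was 25.5 to 319 CPM in WT and 58.8 to 478 CPM in Pon2-/- samples, and all 6 genes had a count in at least 1 sample. Cd79a, a chain of the B cell receptor, had counts in 3 WT and 4 Pon2-/- samples, with its highest levels in Pon2-/- replicates 4 (190.1 CPM) and 5 (194.9 CPM), where Cd48 was 116.8 and 165 CPM. The highest level of Cd48, 205 CPM, was in Pon2-/- replicate 3, where Cd79a had 6.08 CPM. In WT replicate 5, which had 158 CPM of Cd79a, Cd48 was at 33.7 CPM. The gate would remove mature B cells, since the lineage cocktail of the study's methods holds an antibody against B220 (CD45R) and the gate requires Sca1 and ckit. The part of such cells in the level of Cd48 was not tested.

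Cd27 was the gene with the smallest spread among the 10, with an SD of log2 CPM of 0.29 within genotypes, compared with a median of 0.99 over all tested genes. WT samples had 149.8, 207.9 and 287.5 CPM (lowest, median and highest), and Pon2-/- samples 251.3, 303.8 and 336.2 CPM. All 6 Pon2-/- samples lay above the WT median, and 3 lay above the highest WT sample. The fold change was 1.35, or 0.43 on the log2 scale (SE 0.17, 95% interval 0.10 to 0.76, edgeR adjusted p = 0.9999, unadjusted p = 0.0242), below the threshold of 2-fold. The exact permutation test gave an unadjusted p of 0.0195 for a difference of 0.46 in log2 CPM. Cd27 lies on chromosome 6 (125232622 to 125237010, minus strand), the chromosome of Pon2, at a distance of 120 Mb. Its exons overlap the microRNA gene Mir8113 over 129 bp, or 5.54% of their length.

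Ly6a, the gene of Sca1, was used in the sort as a positive marker. It had 142.9, 216 and 336 CPM in WT samples (lowest, median and highest) and 238.2, 292 and 379 CPM in Pon2-/- samples. All 6 Pon2-/- samples lay above the WT median, while 2 of 6 lay above the highest WT sample, so that the groups overlapped. Its log2 fold change was 0.36 (SE 0.21, edgeR adjusted p = 0.9999), with p = 0.106 in the exact permutation test. Without WT replicate 6, the exact permutation test gave p = 0.039, and this was the only one of the 10 genes that passed 0.05 on leaving out a sample without passing it with all samples. Ly6a is 82.3% identical to Ly6g over 905 bp of its transcript of 955 bp, below the 90% at which genes were treated as near-identical copies. Its neighbour in the family, Ly6e, had 635.0 to 968 CPM in WT and 600.4 to 935 CPM in Pon2-/- samples (log2 fold change 0.05, SE 0.13, not called by edgeR), while Ly6d had a median of 3.52 and 19.6 CPM and no count in 2 samples of each genotype. Of the 10 Ly6 genes on chromosome 15, 5 were tested, of which 4 had a fold change above 0 (49.2% of all tested genes), 0 were called by edgeR (0.203%) and 0 had an unadjusted p below 0.05 (3.13%).

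Kit had the highest CPM of the 10 genes, in part because its merged exons span 8911 bp. It had 258.5, 453.6 and 654.5 CPM in WT samples and 354.3, 404.2 and 548.3 CPM in Pon2-/- samples (lowest, median and highest). The Pon2-/- range lay inside the WT range. edgeR gave a log2 fold change of -0.15 (SE 0.21, 95% interval -0.56 to 0.26, edgeR adjusted p = 0.9999; exact permutation test, p = 0.671). Its ligand gene Kitl had counts in 1 WT and 1 Pon2-/- sample. Of the 12 genes for ligands and partners of these receptors, 6 were tested and 0 were called by edgeR (0.203% of all tested genes). Angpt1, the gene of the ligand of Tek, had 398 to 616 CPM in WT and 487 to 711 CPM in Pon2-/- HSCs, while Cd70, the gene of the ligand of CD27, and Proc, the gene of protein C, had no count in any sample.

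Flt3 was the negative marker of the sort. It had 4.59, 31.4 and 49.3 CPM in WT samples and 26.7, 50.6 and 64.96 CPM in Pon2-/- samples (lowest, median and highest), so that counts were found in all 12 samples. WT replicate 2, with 87 counts, was far below the other 5 WT samples, and 3 Pon2-/- samples exceeded the highest WT sample. Its log2 fold change was 0.62 (SE 0.49, 95% interval -0.34 to 1.59, edgeR adjusted p = 0.9999; exact permutation test, p = 0.123). Per kb, Flt3 was at 2.56% to 17.7% of Kit in WT samples (median 9.33%) and at 7.94% to 25.5% in Pon2-/- samples (median 15.8%).

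Slamf1, the positive marker by which CD150+ cells were kept, had 30.99, 57.6 and 114 CPM in WT samples and 47.5, 61.7 and 158 CPM in Pon2-/- samples (lowest, median and highest). A single sample, Pon2-/- replicate 2, lay above the WT range, and without it the direction turned, from a log2 fold change of 0.26 (SE 0.39, edgeR adjusted p = 0.9999) to -0.08. The exact permutation test gave p = 0.494. Per kb, the level of Cd48 was 0.0862 to 10.5 times that of Slamf1 in WT samples (median 3.92) and 3.07 to 18.2 times in Pon2-/- samples (median 12.2). WT replicate 4 was the only sample with less Cd48 than Slamf1 per kb.

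Cd48 and Slamf1 belong to the SLAM family, and the other genes of this family are given for this reason. All 9 lie on chromosome 1, with 7 of them in a row from Cd244a (start 171559193) to Slamf6 (end 171953170), and Slamf9 and Slamf8 farther along (172475358 to 172590568). Of 9 genes, 6 were tested. With edgeR, 0 were called, compared with 0.203% of all tested genes. Cd48 was the 1 gene with an unadjusted p below 0.05, compared with 3.13% of all tested genes. The fold change was above 0 for 5 of 6, compared with 49.2% of all tested genes. Its median was 0.74 on the log2 scale, compared with -0.01 for all tested genes. Cd244a, the gene of the receptor that binds CD48, had 0, 8.14 and 35.2 CPM in WT and 16.1, 36.9 and 97.1 CPM in Pon2-/- samples (lowest, median and highest), with a log2 fold change of 1.60 (SE 1.10, edgeR adjusted p = 0.9999; exact permutation test, p = 0.026). Ly9 had 0.382, 20.4 and 33.5 CPM in WT and 18.7, 37.5 and 45.8 CPM in Pon2-/- samples, with a log2 fold change of 0.85 (SE 0.70, edgeR adjusted p = 0.9999; exact permutation test, p = 0.037). The genotypes overlapped for each of these genes. Cd244a and Ly9 lie on opposite strands and overlap, and the libraries carry no strand information. Cd84 had a log2 fold change of 0.63 (SE 0.35) and Slamf8 of -1.65 (SE 1.76), and Slamf6, Slamf7 and Slamf9 had counts in at most 2 samples of a genotype. The summed level of the 9 genes was 137.7 to 275 CPM in WT and 345 to 513 CPM in Pon2-/- samples, a description for which no test was made. Cd48 is part of this sum. It gave 152.7 CPM of the lowest Pon2-/- sum (replicate 1) and 48.6 CPM of the highest WT sum (replicate 2). Without Cd48, the sums of the genotypes overlapped. Taken singly, 0 of the 6 tested genes had genotypes without overlap, compared with 0.633% of all tested genes.

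**Figure D3:**
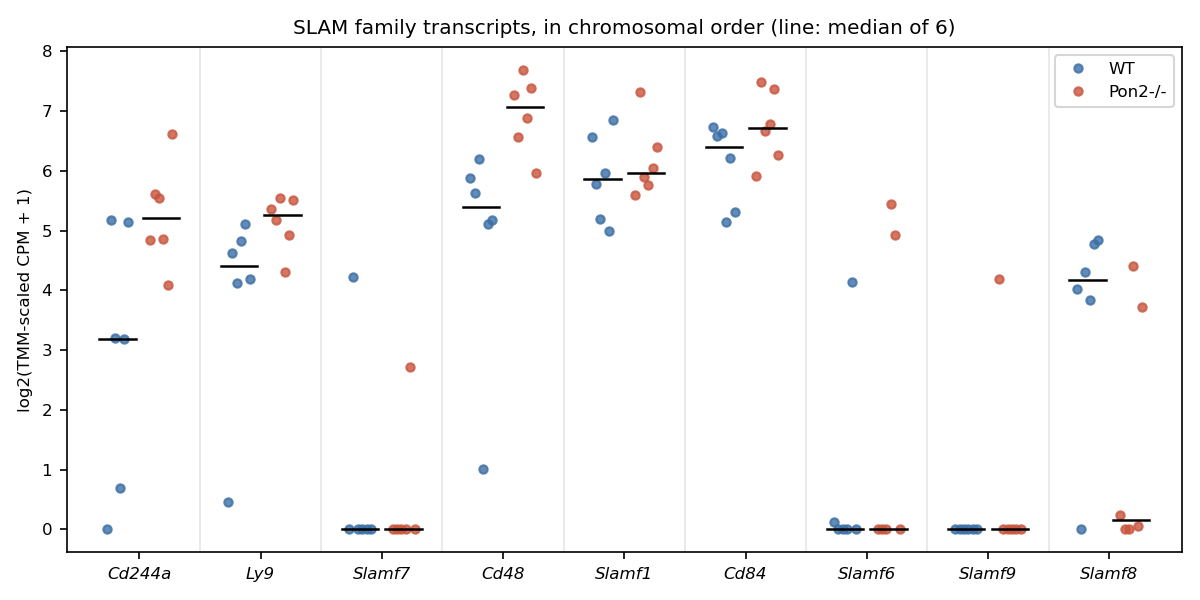
Level of the 9 SLAM family genes in every sample as log2 of TMM-scaled CPM plus 1, in their order along chromosome 1; points are samples of WT (blue) and Pon2-/- (red) mice and black lines are medians of 6. Cd244a, Ly9, Cd48 and Cd84 have a higher median in Pon2-/- samples, and Slamf1 a slightly higher one (61.7 against 57.6 CPM in WT). Slamf8 has a lower one, and Slamf6, Slamf7 and Slamf9 are at 0 in most samples.

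The sequences before the starts of Cd48 and Slamf1 are shown because the pair is adjacent on chromosome 1 and used together, with opposite signs, to sort HSCs; whether their differences between the genotypes differ from each other was not tested. Each run is the 150 bases before the RefSeq start (GRCm38.p6), read 5′ to 3′ on the strand of the gene, from chr1:171681842-171681991, plus strand, and chr1:171766982-171767131, plus strand. Capitals mark matches to short words of blood transcription factor families, with both strands searched. The words for the GATA family were AGATAA and also, with another first letter, TGATAA. For the ETS family the first word was AGGAAG and the second word was CGGAAG. For the RUNX family the first word was TGTGGT and the second word was TGCGGT.
Cd48: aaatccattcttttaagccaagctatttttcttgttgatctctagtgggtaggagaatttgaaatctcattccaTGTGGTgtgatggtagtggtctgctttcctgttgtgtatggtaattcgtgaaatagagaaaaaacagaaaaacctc
Slamf1: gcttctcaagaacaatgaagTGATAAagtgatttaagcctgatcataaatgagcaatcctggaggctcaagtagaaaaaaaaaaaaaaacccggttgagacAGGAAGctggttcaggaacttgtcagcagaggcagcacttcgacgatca
Cd48 holds 1 RUNX word at 76 to 71 bases before its start, and Slamf1 holds 1 GATA word at 130 to 125 and 1 ETS word at 49 to 44 bases before its start. Over all 32851 RefSeq promoters, windows of this length hold a GATA word in 9.65%, an ETS word in 28.0% and a RUNX word in 11.4%. The G and C content was 36.7% for Cd48 and 42.0% for Slamf1, compared with a median of 54.0% over all promoters. Such a match is a description of letters and not a bound site. A sequence was at hand for 8 of the 10 genes, all but Ly6a and Thy1. Of these 8, a GATA word was found before 1, an ETS word before 3 and a RUNX word before 2.

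Cd34 encodes a sialomucin and was not part of the sort. It had 138, 297 and 344 CPM in WT samples and 253, 301 and 497 CPM in Pon2-/- samples (lowest, median and highest). The medians were close, and 2 WT samples lay below the Pon2-/- range and 2 Pon2-/- samples above the WT range. For Cd34, the log2 fold change was 0.34 (SE 0.24, edgeR adjusted p = 0.9999; exact permutation test, p = 0.199). Exons of Cd34 overlap an antisense gene, Gm16897, over 148 bp or 2.03% of their length, and without strand information reads of this stretch cannot be told apart.

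Procr had 33.1, 145 and 173 CPM in WT samples and 88.4, 120.3 and 174 CPM in Pon2-/- samples (lowest, median and highest). WT replicate 1 lay below all others. The log2 fold change was 0.06 (SE 0.33, 95% interval -0.59 to 0.71, edgeR adjusted p = 0.9999; exact permutation test, p = 0.736), and its direction depended on single samples. Tek had 22.8, 44.5 and 75.3 CPM in WT samples and 9.64, 29.3 and 54.6 CPM in Pon2-/- samples. The ranges overlapped, with 3 WT samples above the highest Pon2-/- sample and 2 Pon2-/- samples below the lowest WT sample. The log2 fold change of Tek was -0.64 (SE 0.50, 95% interval -1.61 to 0.34, edgeR adjusted p = 0.9999; exact permutation test, p = 0.238). Tie1, the gene of the receptor that pairs with Tek, had 17.6 to 101 CPM in WT and 20.8 to 116 CPM in Pon2-/- samples.

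Thy1 was the sparsest of the 10 genes, with counts in 10 of 12 samples. It had 0, 3.78 and 12.3 CPM in WT samples and 0, 3.51 and 6.57 CPM in Pon2-/- samples (lowest, median and highest). WT replicate 1 and Pon2-/- replicate 1 had no count, and the groups overlapped throughout. The log2 fold change was -0.34 (SE 1.26, 95% interval -2.81 to 2.14, edgeR adjusted p = 0.9999; exact permutation test, p = 0.931), an interval that leaves a 4-fold difference in either direction possible.

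**Figure D4:**
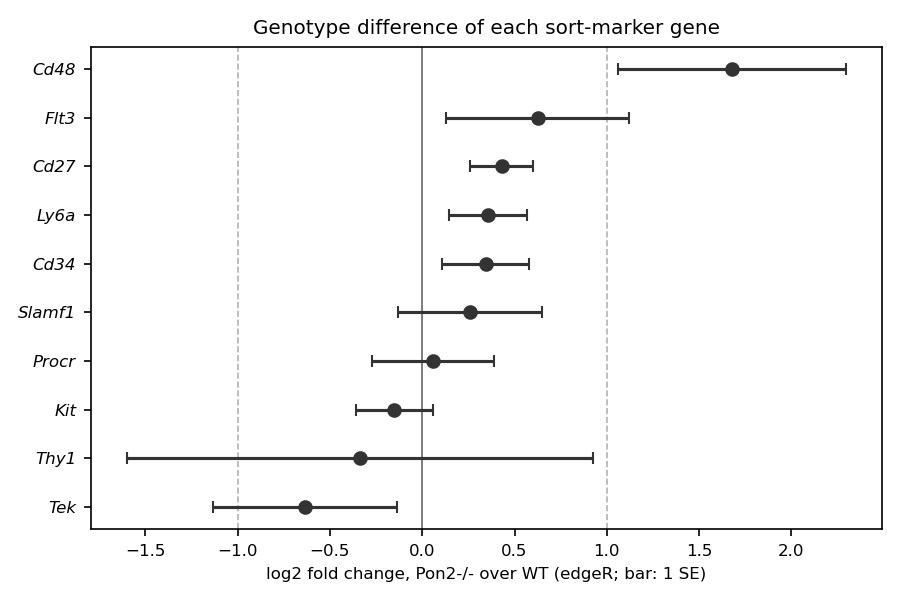
Log2 fold change of each gene, Pon2-/- over WT, from the edgeR fit of 6 against 6 samples; points are fitted values, bars are 1 standard error, and dashed lines mark a 2-fold difference. Cd48 (1.68) lies beyond 2-fold, the other 9 genes lie between -0.64 and 0.62, and none passed the FDR threshold.

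Most pairs of the 10 genes showed little relation over the samples. Over the 12 samples, the 45 pairs of genes had a median Pearson r of 0.02 in log2 CPM, 3 pairs had r above 0.5 and 3 had r below -0.5. The highest were Procr with Thy1 (0.66), Cd48 with Cd27 (0.59) and Cd34 with Cd27 (0.58). The lowest were Cd27 with Tek (-0.54), Kit with Ly6a (-0.54) and Kit with Cd48 (-0.50). With the genotype means removed, the r of Cd48 with Cd27 was 0.32. These values describe pools that share their depth and amplification, and on leaving out single samples the r of Procr with Thy1 ranged from 0.29 to 0.88.

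Among 11847 other tested genes, the most similar profile over 12 samples was that of Ybx3 for Kit (r = 0.91), Iffo1 for Ly6a (0.86), Adam17 for Slamf1 (0.89), Ptgr1 for Cd48 (0.95) and Sos2 for Flt3 (0.98). It was Mtmr3 for Procr (0.91), Bcas3 for Cd27 (0.92), Irgq for Thy1 (0.92) and Mrpl11 for Tek (0.87). Each is the highest of 11847 values over 12 samples, and these names are given as a description only.

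The spread of the 10 genes differed widely. The SD of log2 CPM within genotypes was 0.38 for Ly6a, 0.39 for Kit and 0.45 for Cd34, compared with 1.65 for Cd48 and 2.33 for Thy1, and its median over the 10 genes was 0.69. In all, 5 of the 10 genes varied by more than 5-fold between the lowest and the highest of the 12 samples where none was at 0, namely Slamf1, Cd48, Flt3, Procr and Tek. The genes of the other surface proteins of HSCs were tested for 12 of 14 genes, with 4 of the 12 above a fold change of 0 (49.2% of all tested genes) and 0 called by edgeR (0.203% of all tested genes). Of these, Cd81 had 522 to 748 CPM in WT and 511 to 589 CPM in Pon2-/- samples. It was lower in Pon2-/- samples (log2 fold change -0.22, SE 0.11, edgeR adjusted p = 0.9999; exact permutation test, unadjusted p = 0.035). Cd9 had 128 to 301 CPM in WT and 169 to 308 CPM in Pon2-/- samples.

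For the genes of other cells, edgeR called 0 genes in each list, compared with 0.203% of all tested genes. Of the lineage genes, 4 of 12 were tested, and Ptprc, the gene of CD45, which stem and progenitor cells also express, had 239 to 364 CPM in WT and 216 to 411 CPM in Pon2-/- samples. Ly6c2 and Ly6g had a median of 10.2 and 0.868 CPM in WT and 27.3 and 11.8 CPM in Pon2-/- samples. Of 6 B cell genes, 3 were tested, and Cd79b had 25.5 to 208 CPM in WT and 58.8 to 160.3 CPM in Pon2-/- samples. Of 7 lymphoid progenitor genes, 3 were tested. Dntt had counts in 1 WT and 2 Pon2-/- samples, and Notch1 had a median of 20.9 and 17.6 CPM in WT and Pon2-/- samples. Of 8 myeloid progenitor genes, 5 were tested, with Prtn3 at 302 to 332 CPM in WT and 233 to 385 CPM in Pon2-/- samples, Csf3r at a median of 70.8 and 68.6 CPM and Fcgr3 with counts in 2 WT and 5 Pon2-/- samples. Of 10 megakaryocyte and erythroid genes, which MPP2 cells may also express, 8 were tested, and Pf4, Gp9 and Gp5 had medians of 61.7, 61.1 and 26.0 CPM in WT and 60.2, 54.9 and 20.9 CPM in Pon2-/- samples. Of 9 endothelial genes, 3 were tested, and Emcn had 40.6 to 150.5 CPM in WT and 51.8 to 128.9 CPM in Pon2-/- samples, and Ramp2 had a median of 7.68 CPM in both genotypes. Of the 8 HSC reporter genes, 1 had a fitted fold change above 0 (49.2% of all tested genes) and 0 were called by edgeR (0.203% of all tested genes). Pdzk1ip1 had the only unadjusted edgeR p below 0.05 (log2 fold change -0.32, SE 0.13, edgeR adjusted p = 0.9999), compared with 3.13% of all tested genes. Its exact permutation test gave an unadjusted p of 0.0325, where 5.87% of all tested genes were below 0.05.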

How the data were processed

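Per the labels, RNA of sorted LT-HSCs was processed with Smart-seq2 and sequenced. The authors used FastQC 0.11.5, Trimmomatic 0.36 and STAR 2.5.3a on GRCm38.p5 and counted reads per gene, and the deposited values are raw counts, 1 file per mouse. Which of STAR's columns was kept was not given in the sources used here, and the counts were taken as unstranded. Of 49585 genes, 49326 were named from GENCODE M21 (GRCm38). Every line with a value named a gene, and the 12 blank lines, 1 at the end of each file, were skipped.

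Counts were analysed in R 4.3.3 with edgeR 4.0.16 (TMM, filterByExpr, quasi-likelihood F-test, genotype as the only term), with Benjamini-Hochberg adjustment over 11848 genes. SE were derived from the fold change and F. Single genes were compared on log2 CPM (prior count 2) with two-sided exact permutation tests (924 assignments, smallest p 0.00216), unadjusted. Levels per kb had 0.1 added. Copies were searched with minimap2 (at least 90% identity over 50% of the transcript). DESeq2 1.42.0, voom in limma 3.58.1, other filters and scalings, a replicate block and the removal of single samples were alternatives. The procedures were tested on simulated data. The 10 genes and all lists were chosen with earlier results of these data known. In each list, the 3 genes with the highest level per kb were named, as well as genes called by edgeR or without overlap, and for each of the 10 genes the tested gene with the highest r; some of these are not reported here, and other genes were named after their values were seen.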

Additional observations from a re-analysis of the deposited data

Results flagged for a closer look

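In 4 of 22 groups of 6 samples tested, a single sample stood far from the others on the log2 CPM scale (Dixon's test), where chance gives about 1 in 20. WT replicate 4 had a log2 CPM of 0.17 for Cd48, and WT replicate 2 had 2.23 for Flt3. Pon2-/- replicate 1 had -3.20 for Thy1, which stands for a count of 0, and Pon2-/- replicate 5 had 0.34 for Pon2. These samples are of different mice, and no sample stood apart for more than 1 of the genes examined.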

How the results depend on the processing

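The number of the 10 genes called stayed at 0 under all 20 alternatives. The number of all genes called was 24 and moved to 8 with no filter beyond 1 read, 304 with DESeq2, 966 with DESeq2 without Cook's cutoff and 5 with the replicate block; the cause was not tested. Of the genes of all lists, edgeR called 0 (0.203% of all tested genes) and DESeq2 called 4, Cd4, Ctsg and Gp1bb among them (1.77% of all genes). DESeq2 without Cook's cutoff called 8, with Slamf9, Rag2, Elane and Il7r in addition, beside the 966 called over all genes. The share of all genes was not computed for this setting, so the 8 cannot be set against it. Cd4 had counts in 2 Pon2-/- samples only, and Ctsg and Gp1bb each in 2 WT samples only. Slamf9, Rag2 and Il7r each had counts in 1 Pon2-/- sample only, and Elane in 1 WT sample only. These alternatives for the lists were chosen after seeing the data. Replicate numbers did not pair the samples: the correlation of deviations between same-numbered samples was 0.000932 to 0.0430, with 0 of 6 pairs over 0.1, and 1 of 6 WT samples correlated best with its own number. With the replicate block, 1 of the 10 genes instead of 2 had an exact p below 0.05, since Cd27 then had p = 0.0625 (exact permutation test of 6 differences).

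In WT samples only, 0 instead of 4 pairs of neighbours in the order per kb passed, where the smallest exact p for 6 samples is 0.03125 before adjustment. For log2 fold changes, leaving out single samples gave -0.077 to 0.49 for Slamf1, -0.14 to 0.17 for Procr and -0.60 to 0.21 for Thy1. For differences in log2 CPM, it gave -0.26 to 0.0050 for Kit, -0.14 to 0.34 for Procr and -0.96 to 0.83 for Thy1. For log2 ratios per kb, it gave -0.50 to 0.26 for Kit over Cd48 and -0.0027 to 0.57 for Tek over Flt3. With the longest transcript as length, Procr over Kit was -0.19, Cd48 over Cd34 was -0.97 and Tek over Flt3 was -0.28, since the lengths change by gene. Cd48 over Cd34 was -0.67 in WT samples only, and Kit over Cd48 was -0.011 with a pseudocount of 1. Slamf1 over Tek passed without WT replicate 5, at 0.78 (exact permutation test, adjusted p = 0.0299). Without WT replicate 4, Cd48 over Cd34 passed its test, at 0.79 (exact permutation test, adjusted p = 0.0044). The spread between pools, with a biological coefficient of variation of 99.2% over all genes, limits what can be called at these thresholds. The lowest count in a sample was 427 for Slamf1, 13 for Cd48, 87 for Flt3 and 0 for Thy1.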
